A study of Ovis aries with 16 samples.

Results

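The let-7 family was measured as 7 of the 105 microRNAs (miRNAs, short RNAs that repress messenger RNAs by base pairing) tabulated for liver and muscle of female sheep. Its members were every entry whose name starts with MIRLET7: MIRLET7A, MIRLET7B, MIRLET7C, MIRLET7D, MIRLET7F, MIRLET7G and MIRLET7I. The study sequenced small RNAs from both tissues of 8 ewes, 16 libraries in 4 groups of 4, to look for RNAs altered by excess testosterone before birth. Liver and muscle from ewes 98, 131, 132 and 201 were labelled control, and those from ewes 48, 185, 233 and 255 prenatal T. All 16 libraries were labelled female and came from Trizol-extracted total RNA and a NEBNext small RNA kit. The labels used here give no breed, age, dose or exposure window, and do not name the muscle. Since liver and muscle libraries with the same ewe number came from the same animal, each group held 4 animals.

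The let-7 miRNAs are among the most conserved in animals and carry the same seed, the stretch near the 5′ end that selects targets, so they can act on the same messenger RNAs. They accumulate as cells leave the fetal state, because the RNA-binding protein LIN28 blocks their maturation in early tissue. In adult liver and muscle they restrain growth regulators and components of insulin signalling such as the insulin receptor. Different members are transcribed from different genes, so the mix of members can differ between tissues while the seed stays the same.

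The RefSeq table of the ARS-UI_Ramb_v3.0 sheep assembly, used for names and gene order only, listed all 7 members. MIRLET7A and MIRLET7D were direct neighbours inside the span of ZNF169. MIRLET7C stood beside MIR99A inside LOC121816219, the cluster that also holds a copy of the MIR125B family in mammals. MIRLET7F lay inside HUWE1, MIRLET7G inside WDR82, MIRLET7B inside LOC121819243, and MIRLET7I inside LOC121819183 next to MON2. No entry of the long non-coding RNA table held or directly neighboured a member (0 for each of the 7). Mature let-7 forms differ from each other by few bases and some are encoded at more than 1 locus. How reads that match several members or loci were assigned is not given in the sources used here, so values of MIRLET7A, MIRLET7C and MIRLET7F carry that uncertainty in particular.

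The libraries held 206304 to 755344 miRNA reads in liver and 113522 to 885316 in muscle. A member had between 1301 and 44043 reads in a library, which made counting error small: the widest 95% Wilson interval for a share of let-7 reads spanned 0.978 percentage points. The intervals reflect counting alone; no molecular identifiers marked amplified copies. The hepatocyte miRNAs MIR194, MIR148A and MIR152 (3 of 5 listed) together took 10.8% to 15.6% of miRNA reads in liver libraries and 0.232% to 0.413% in muscle. MIR133, the single skeletal muscle miRNA measured of 7 listed, took 37.2% to 56.4% in muscle and 0.0290% to 0.227% in liver, so the tissue labels matched these markers. The liver of ewe 98 had the 0.227% of MIR133, against at most 0.0639% in the other livers. The muscle of ewe 255 had the 37.2%, against at least 50.0% in the other muscles, and was the shallowest library. The library numbers in the labels form a lower and a higher run: 2 livers and 7 muscles carry the lower numbers, and 6 livers and 1 muscle the higher. Shares of let-7 reads in both tissues are therefore also given within each run. The other comparisons between tissues are not. What the runs stand for is not stated.

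The composition of the family differed between liver and muscle. MIRLET7B and MIRLET7D made up a smaller part of let-7 reads in liver, and MIRLET7F a larger part. MIRLET7I also made up a larger part, but its call in control ewes was lost under several alternatives. MIRLET7A, the most abundant member, MIRLET7G and MIRLET7C did not pass the test. This comparison needs no scaling between libraries, because each member is set against the let-7 reads of its own library. The shares add up to 100% in a library, so a higher share of 1 member lowers the others. Most tested miRNAs passed when set against let-7 reads in this way, as given below. How many of them also had no overlap between livers and muscles was not counted. Where a member below had no overlap, this is therefore not shown to be particular to it.

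**Figure D1:**
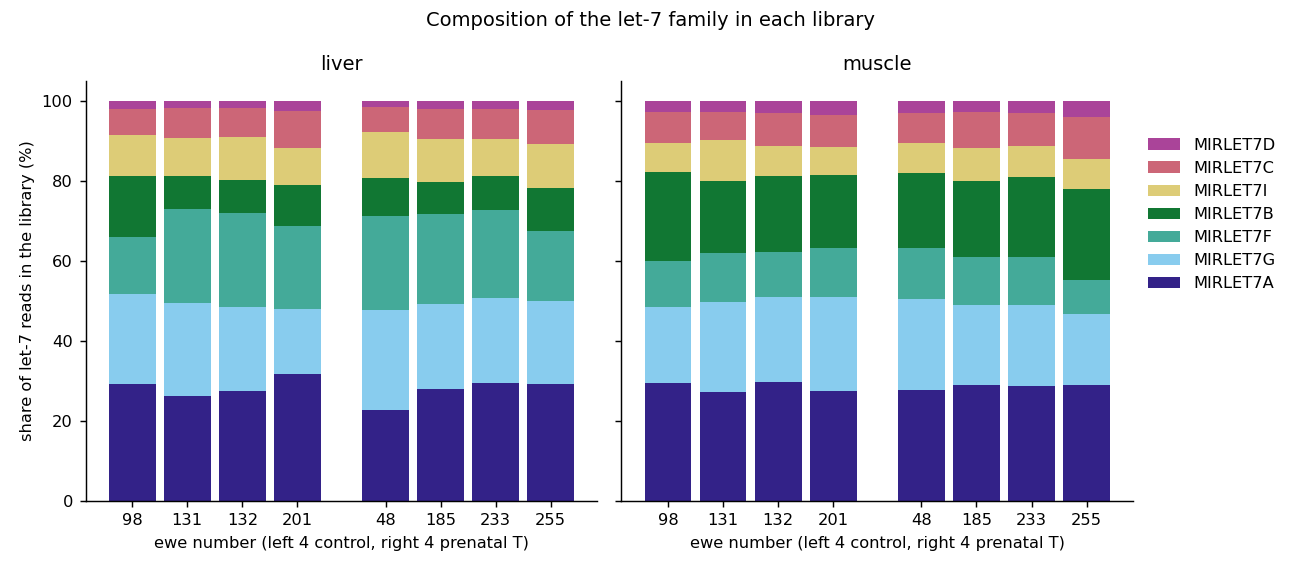
Share of let-7 reads taken by each of the 7 members (y axis, percent) in each library, named by ewe number on the x axis, with liver on the left and muscle on the right. The MIRLET7B band is 8.16% to 15.4% of liver bars and 17.9% to 22.5% of muscle bars, while the MIRLET7F band is 14.2% to 23.6% in liver and 8.59% to 12.7% in muscle.

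MIRLET7B is encoded in a let-7 cluster that mammals carry apart from the MIRLET7A and MIRLET7D pair. It made up 15.4%, 8.16%, 8.27% and 10.3% of let-7 reads in the livers of control ewes 98, 131, 132 and 201, and 22.0%, 17.9%, 19.0% and 18.1% in their muscles. In prenatal T ewes 48, 185, 233 and 255 it made up 9.43%, 8.22%, 8.43% and 10.7% in liver and 18.9%, 19.0%, 19.9% and 22.5% in muscle. Every muscle was above every liver, and the highest liver was that of ewe 98. Within an ewe the muscle share was 1.43 to 2.36 times the liver share, with a mean of 2.06 ± 0.320 (SD, n = 8 ewes), and was higher in muscle in 8 of 8 ewes. The log2 difference of liver minus muscle was -0.91 (SE 0.17, limma adjusted p = 7.71e-05) in control ewes and -1.13 (SE 0.17, limma adjusted p = 4.69e-06) in prenatal T ewes.

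MIRLET7F, whose gene lies inside the ubiquitin ligase gene HUWE1, showed the opposite pattern. Its share of let-7 reads in the livers of control ewes 98, 131, 132 and 201 was 14.2%, 23.6%, 23.5% and 20.8%, and in their muscles 11.7%, 12.4%, 11.2% and 12.4%. In prenatal T ewes 48, 185, 233 and 255 it was 23.5%, 22.3%, 22.1% and 17.6% in liver and 12.7%, 12.0%, 12.0% and 8.59% in muscle. Every liver was above every muscle, with the liver of ewe 98 lowest among livers and the muscle of ewe 255 lowest of all. The muscle share was 0.567 ± 0.110 (SD, n = 8 ewes) times the liver share and lower in 8 of 8 ewes. The log2 difference of liver minus muscle was 0.75 (SE 0.16, limma adjusted p = 0.000373) in control and 0.92 (SE 0.16, limma adjusted p = 4.20e-05) in prenatal T ewes.

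The ratio of MIRLET7F to MIRLET7B put these opposite patterns in a single number per library. It was 0.923, 2.90, 2.84 and 2.03 in the livers of ewes 98, 131, 132 and 201 and 2.49, 2.72, 2.62 and 1.64 in those of ewes 48, 185, 233 and 255. In muscle it ran from 0.381 in ewe 255 to 0.696 in ewe 131. MIRLET7F thus exceeded MIRLET7B in 7 of 8 livers, the exception being that of ewe 98, and in 0 of 8 muscles.

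MIRLET7D, the least abundant member and the neighbour of MIRLET7A, took 1.55% to 2.53% of let-7 reads in liver and 2.83% to 3.94% in muscle, with no overlap. Its control livers of ewes 98, 131, 132 and 201 had 1.91%, 1.86%, 1.83% and 2.53%, and the muscles 2.86%, 2.83%, 2.96% and 3.61%. In prenatal T ewes 48, 185, 233 and 255 the values were 1.55%, 1.98%, 2.07% and 2.23% in liver and 3.08%, 2.84%, 2.91% and 3.94% in muscle. Ewe 201 was the highest control in both tissues. The share was higher in muscle in 8 of 8 ewes, by 1.58 ± 0.203 times (SD, n = 8 ewes). The log2 difference of liver minus muscle was -0.60 (SE 0.18, limma adjusted p = 0.00474) in control and -0.71 (SE 0.18, limma adjusted p = 0.00116) in prenatal T ewes. MIRLET7D and its neighbour MIRLET7A therefore did not keep a fixed proportion: MIRLET7D had 0.0709 ± 0.00492 reads for each MIRLET7A read in liver and 0.110 ± 0.0154 in muscle (SD, n = 8 libraries each).

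MIRLET7I, encoded by a gene that stands alone, had a smaller difference. Its share was 10.2%, 9.65%, 10.7% and 9.26% in the livers of ewes 98, 131, 132 and 201 and 7.40%, 10.3%, 7.57% and 7.18% in their muscles. In ewes 48, 185, 233 and 255 it was 11.7%, 10.6%, 9.29% and 10.9% in liver and 7.40%, 8.17%, 7.74% and 7.55% in muscle. The muscle of ewe 131 lay within the range of the livers, and the share was lower in muscle in 7 of 8 ewes. The log2 difference of liver minus muscle was 0.46 (SE 0.14, limma adjusted p = 0.00539) in prenatal T ewes and 0.31 (SE 0.14, limma adjusted p = 0.0480) in control ewes. In control ewes the call was lost with the ewe as a block (limma adjusted p = 0.0598), without the filter on low values (0.0561) and without the variance trend (0.0709). It was also lost without any 1 of 6 of the 8 control libraries: livers 98, 131 or 132, or muscles 98, 132 or 201, with adjusted p from 0.0598 to 0.134.

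The other 3 members did not pass in either group. MIRLET7A took 28.0% ± 2.67 of let-7 reads in liver and 28.5% ± 0.950 in muscle (SD, n = 8 each), with log2 differences of 0.01 in control and -0.07 in prenatal T ewes (95% intervals -0.22 to 0.24 and -0.30 to 0.17). MIRLET7G took 21.3% ± 2.52 and 20.9% ± 1.96, with differences of -0.07 and 0.12 (intervals -0.35 to 0.21 and -0.16 to 0.40). MIRLET7C took 7.52% ± 0.987 and 8.28% ± 1.15, with differences of -0.03 and -0.25 (intervals -0.35 to 0.29 and -0.57 to 0.07). Within ewes the MIRLET7C share was higher in muscle in 6 of 8, among them all 4 prenatal T ewes, where the log2 of muscle over liver was 0.27, 0.25, 0.16 and 0.32 in ewes 48, 185, 233 and 255. With the ewe as a block MIRLET7C did not pass in prenatal T ewes (limma adjusted p = 0.107); with the run of library numbers as a covariate it did, at -0.41 (limma adjusted p = 0.00853). Its share is therefore not shown to be the same in both tissues.

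In each treatment group 4 of 7 members passed on these shares, 2 in each direction. With all 76 tested miRNAs set against let-7 reads in the same way, 63.2% passed as higher and 17.1% as lower in liver in control ewes, and 64.5% and 11.8% in prenatal T ewes. The median log2 difference of liver minus muscle was -0.03 over the 7 members and 0.95 over the 76 miRNAs in control ewes, and -0.07 and 1.04 in prenatal T ewes. Scaling to let-7 reads fixes the members' total, so when some rise others must fall and their median tends to lie near 0. The gap between the medians therefore restates the family's level against other miRNAs and is not a separate result. The percentages of the 76 miRNAs are shifted by the same scaling. The members' adjusted p values were taken over these 76 miRNAs, so they depend on that scaling too. With most of the 76 passing, MIRLET7I in control ewes went only from an unadjusted limma p of 0.0385 to an adjusted 0.0480. No adjustment over the 7 members alone was made. Without the liver of ewe 98, the control differences were -1.12 for MIRLET7B and 0.92 for MIRLET7F, no smaller than with it. With the library number run as a covariate they were -0.76 and 0.76, and MIRLET7D was at -0.84.

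Within each run of library numbers the ranges of MIRLET7B, MIRLET7F, MIRLET7D and MIRLET7C stayed apart. Those of MIRLET7I overlapped among the lower numbers, and those of MIRLET7A and MIRLET7G overlapped in both runs. With few livers in the lower run and a single muscle in the higher, ranges can stay apart easily. The same count over all tested miRNAs was not made. Among the lower numbers, MIRLET7B was 9.43% and 15.4% in the 2 livers and 17.9% to 22.0% in the 7 muscles. MIRLET7F was 23.5% and 14.2% in those livers and 11.2% to 12.7% in those muscles. Among the higher numbers, the 6 livers had 8.16% to 10.7% of MIRLET7B and 17.6% to 23.6% of MIRLET7F, and the single muscle, that of ewe 255, had 22.5% and 8.59%. MIRLET7D was likewise lower in the livers of both runs, at 1.55% and 1.91% against 2.83% to 3.61% and at 1.83% to 2.53% against 3.94%. MIRLET7C, which overlapped over all libraries, was at 6.16% and 6.59% in the livers against 6.95% to 9.02% in the muscles of the lower numbers, and at 7.23% to 9.23% against 10.6% in the higher. MIRLET7I was at 11.7% and 10.2% in the livers against 7.18% to 10.3% in the muscles of the lower numbers, and at 9.26% to 10.9% against 7.55% in the higher.

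**Figure D2:**
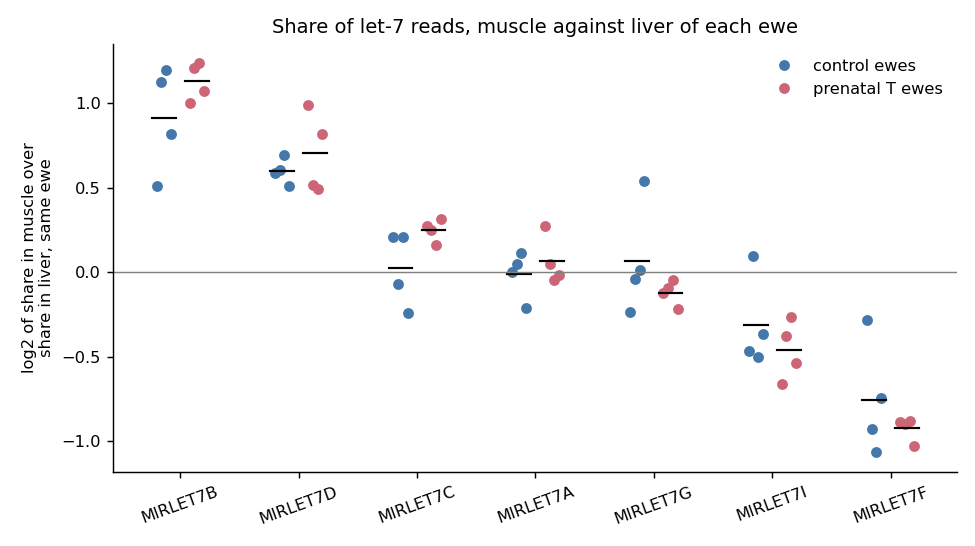
Log2 of each member's share of let-7 reads in muscle over its share in liver of the same ewe (y axis), with 1 point per ewe, control in blue and prenatal T in red, and black lines at group means. All 8 points lie above 0 for MIRLET7B and MIRLET7D and below 0 for MIRLET7F, and 7 of 8 lie below 0 for MIRLET7I.

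The order of the members also differed. Values were not divided by length, as mature let-7 miRNAs are of nearly equal length. Library kits do not capture all miRNAs equally, and the part of this in the order was not tested. In liver the mean shares ran from MIRLET7A (28.0% ± 2.67) through MIRLET7G (21.3% ± 2.52), MIRLET7F (21.0% ± 3.38), MIRLET7I (10.3% ± 0.854), MIRLET7B (9.87% ± 2.46) and MIRLET7C (7.52% ± 0.987) to MIRLET7D (1.99% ± 0.295). The neighbours MIRLET7G and MIRLET7F, and MIRLET7I and MIRLET7B, lay within each other's spread. In muscle the mean shares ran from MIRLET7A (28.5% ± 0.950) through MIRLET7G (20.9% ± 1.96), MIRLET7B (19.7% ± 1.74), MIRLET7F (11.6% ± 1.32), MIRLET7C (8.28% ± 1.15) and MIRLET7I (7.91% ± 1.01) to MIRLET7D (3.13% ± 0.415). There MIRLET7G and MIRLET7B, and MIRLET7C and MIRLET7I, lay within each other's spread. MIRLET7A led in 15 of 16 libraries and MIRLET7D was last in all 16. The exception was the liver of ewe 48, led by MIRLET7G at 24.9% with MIRLET7A at 22.8%.

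How much let-7 each tissue held depended on what it was measured against. As a share of miRNA reads, the family took 30.6%, 28.5%, 27.0% and 29.9% in the livers of control ewes 98, 131, 132 and 201 and 17.4%, 19.6%, 18.8% and 17.1% in their muscles. In prenatal T ewes 48, 185, 233 and 255 it took 22.0%, 26.7%, 30.5% and 28.1% in liver and 18.0%, 16.9%, 17.1% and 29.1% in muscle. The muscle of ewe 255 lay among the livers, and the other 7 muscles were below every liver. MIR133 took 37.2% of miRNA reads in that muscle. Of miRNA reads other than MIR133 the order was the reverse: the family took 27.9% ± 2.83 in liver and 39.3% ± 3.04 in muscle (SD, n = 8 each).

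Levels of single members between tissues were first compared after scaling all 16 libraries jointly by the median of ratios, which takes the typical miRNA as the reference. On that scale 6 of 7 members were lower in liver in control ewes, where 27.6% of the 76 tested miRNAs passed as lower and 40.8% as higher, and 6 of 7 were lower in prenatal T ewes, where 28.9% passed as lower and 39.5% as higher. The directions of MIRLET7A, MIRLET7C, MIRLET7G and MIRLET7I, and of MIRLET7D in control ewes, turned when reads were scaled to the miRNA reads of the library. MIRLET7B was at -1.60 (SE 0.17, limma adjusted p = 2.16e-08) in control and -1.96 (SE 0.17, 4.65e-10) in prenatal T ewes on the joint log2 scale. MIRLET7D was at -1.29 (SE 0.22, 1.08e-05) and -1.54 (SE 0.22, 1.04e-06). MIRLET7F did not pass, at 0.07 and 0.09 (adjusted p = 0.755 and 0.637).

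The remaining members lay between these on the joint log2 scale. MIRLET7A was at -0.68 in control and -0.90 in prenatal T ewes, MIRLET7C at -0.71 and -1.08, and MIRLET7G at -0.76 and -0.71, each with a limma adjusted p of at most 0.00281. MIRLET7I was at -0.38 and -0.37 (adjusted p = 0.0259 and 0.0284). Its call was lost in both groups with reads scaled to miRNA reads other than MIR133 (-0.09 and -0.13, adjusted p = 0.595 and 0.389). It was also lost in control ewes without muscle 131 (-0.27, adjusted p = 0.113) and in prenatal T ewes without liver 48 (-0.34, 0.0666) or liver 233 (-0.34, 0.0700).

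Scaled to miRNA reads, 5 members passed as higher in liver and 0 as lower in control ewes, against 73.7% and 5.26% of the 76 miRNAs; 5 members had an unadjusted p under 0.05. In prenatal T ewes 3 passed as higher and 1, MIRLET7B, as lower, against 72.4% and 9.21%. MIRLET7A was at 0.68 in control ewes on this scale, MIRLET7F at 1.43 and MIRLET7B at -0.24. The scales differed by a near constant shift: the median log2 difference over all 76 miRNAs was 0.27 with joint factors, 0.09 with trimmed-mean (TMM) factors, 0.55 without MIR133, 1.62 scaled to miRNA reads and, over 78 miRNAs, 2.33 scaled to the reads of the 4 RNA classes in the data. These libraries cannot say which scale gives amounts per cell, and in whole tissue a change in cell number and a change in RNA per cell cannot be told apart.

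Distances from that median hardly depend on the scale, since a rescaling moves all miRNAs nearly alike. In control ewes MIRLET7B lay 1.87 below the median miRNA on the log2 scale with joint factors, MIRLET7D 1.55, MIRLET7G 1.02, MIRLET7C 0.98, MIRLET7A 0.94, MIRLET7I 0.64 and MIRLET7F 0.20. All 7 were below the median in both treatment groups, which counts as 1 observation and not as 1 for each scaling. Without the liver of ewe 98, 6 of 7 were below it with joint factors in control ewes, and MIRLET7F was itself the median at 0.29.

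**Figure D3:**
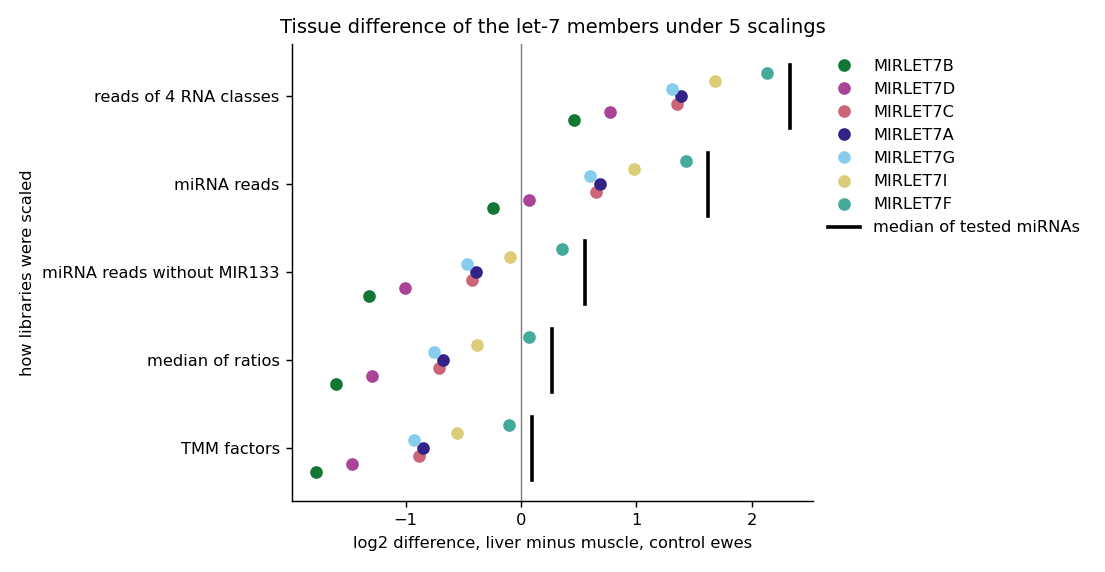
Log2 difference of liver minus muscle in control ewes (x axis) for the 7 members, under 5 ways of scaling the libraries (y axis), with the median of the tested miRNAs (76, or 78 for the reads of 4 RNA classes) as a black bar. The whole family shifts with the bar, from a median of 0.09 with TMM factors to 2.33 scaled to the reads of 4 RNA classes, and every member stays to the left of it.

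Markers of other cell types also differed between the tissues, and their part in the let-7 results was not tested. MIR143, MIR199A and MIR10B, of a 6-member vessel and stroma list, summed to 7.35% to 11.4% of miRNA reads in liver and 1.95% to 4.04% in muscle, but did not move as one. On the joint scale in control ewes MIR10B was at -5.16 for liver minus muscle (limma adjusted p = 1.55e-13), MIR199A at 0.65 (0.0149) and MIR143 at 0.08 (0.755). The epithelial MIR200A, MIR200B and MIR200C (3 of 5 listed) summed to 0.408% to 1.07% and 0.000896% to 0.00356%. MIR16B, the single red blood cell entry measured of 4, took 0.300% to 0.607% and 0.207% to 0.474%. On the joint scale its direction was the reverse, lower in liver at -0.37 in control ewes, where it did not pass (limma adjusted p = 0.128). In prenatal T ewes MIR16B was at -0.53 on that scale (limma adjusted p = 0.0350). MIR150, the single lymphocyte and myeloid entry of 4, took 0.0878% to 0.184% and 0.189% to 0.531%.

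No member differed detectably between prenatal T and control livers. All 7 members had a lower mean in prenatal T livers, but 0 of 7 passed, and none had an unadjusted p under 0.05. Over all 81 miRNAs tested with limma 0% passed and 0 had an unadjusted p under 0.05. MIRLET7A had 32115, 29842, 28989 and 37779 normalised reads in the control livers of ewes 98, 131, 132 and 201 and 18641, 31639, 30641 and 29257 in the prenatal T livers of ewes 48, 185, 233 and 255. The groups overlapped, with the highest value in control ewe 201 and the lowest in prenatal T ewe 48. Its log2 difference of prenatal T minus control was -0.25 (95% interval -0.63 to 0.14, limma adjusted p = 0.959).

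MIRLET7B had the largest difference in liver, -0.33 (interval -0.78 to 0.12, limma adjusted p = 0.959). It had 16935, 9278, 8738 and 12210 normalised reads in the control livers of ewes 98, 131, 132 and 201 and 7704, 9299, 8739 and 10723 in the prenatal T livers of ewes 48, 185, 233 and 255. The control liver of ewe 98 was far above the rest, and the other 7 overlapped. The other 5 members were at -0.23 (MIRLET7D), -0.20 (MIRLET7C), -0.10 (MIRLET7F), -0.09 (MIRLET7I) and -0.08 (MIRLET7G). The median over the 7 members was -0.20, beside 0.01 over the 81 miRNAs. It was -0.04 without the prenatal T liver of ewe 48, -0.09 without the control liver of ewe 201 and -0.06 within the higher library numbers.

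Muscle showed no shared direction. MIRLET7C, MIRLET7B, MIRLET7D and MIRLET7A were at 0.22, 0.09, 0.08 and 0.03 (prenatal T minus control, log2), and MIRLET7I, MIRLET7G and MIRLET7F at -0.03, -0.06 and -0.07. None of the 7 passed or had an unadjusted p under 0.05 (limma adjusted p from 0.778 to 0.936), and of all 64 miRNAs tested 0% passed, with 5 at an unadjusted p under 0.05. MIRLET7C had 5822, 5292, 6442 and 5700 normalised reads in the control muscles of ewes 98, 131, 132 and 201 and 5831, 6141, 6363 and 9246 in the prenatal T muscles of ewes 48, 185, 233 and 255. The muscle of ewe 255 stood above all others, and the other 3 prenatal T muscles lay within the control range. The median over the members was 0.03, beside -0.05 over all 64 miRNAs, and without that muscle it was -0.03, with 2 members higher and 5 lower.

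**Figure D4:**
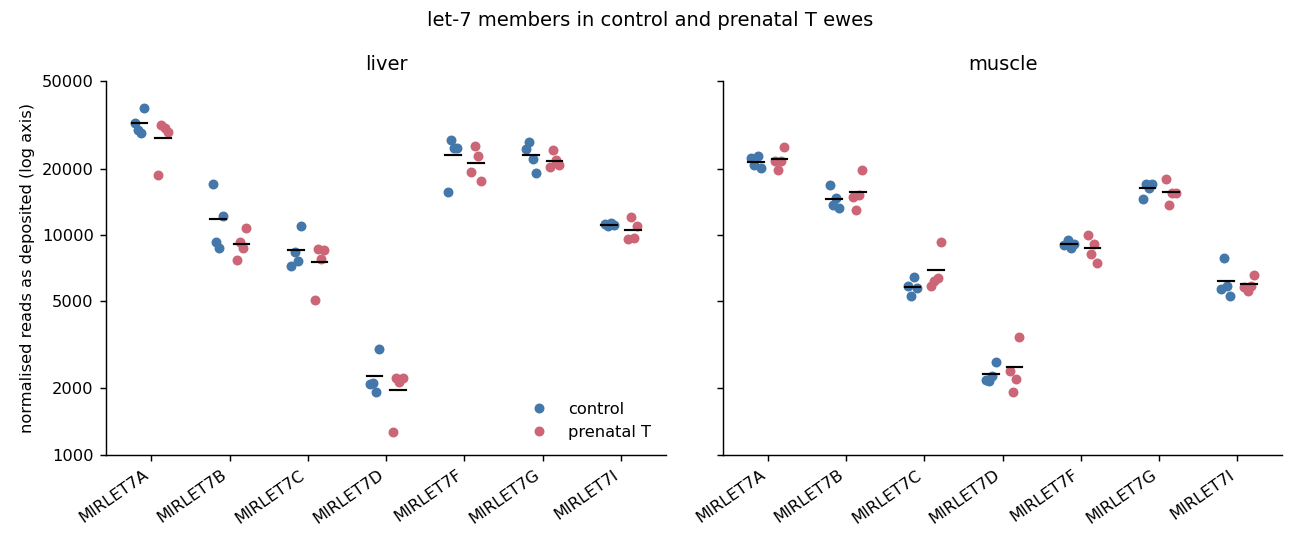
Deposited normalised reads (y axis, log scale) of the 7 members in liver (left) and muscle (right), with 1 point per library, control in blue and prenatal T in red, and black lines at group means. Control and prenatal T points overlap for each member in both tissues. Values should be compared within a tissue only, since they appear to have been scaled per tissue.

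The size of a prenatal T effect that the data leave room for can be read from the intervals. In liver they reached at most 0.50 to either side of the estimate (MIRLET7D) and in muscle 0.37 (also MIRLET7D). The largest decrease inside a liver interval was -0.78, for MIRLET7B, and the largest increase inside a muscle interval was 0.55, for MIRLET7C. The effect in liver less the effect in muscle was tested in 1 fit over 16 libraries. Here 0 of 7 members and 0% of 76 miRNAs passed with limma, and 0 members and 2 miRNAs had an unadjusted p under 0.05. The largest differences were -0.43 for MIRLET7C (interval -0.98 to 0.12) and -0.42 for MIRLET7B (interval -0.95 to 0.11), both with a limma adjusted p of 0.752.

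**Figure D5:**
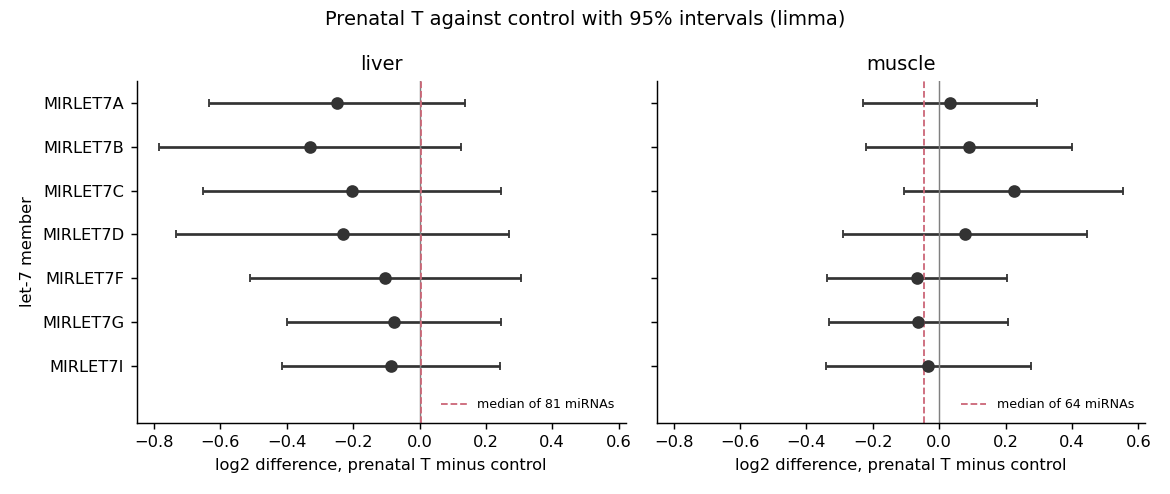
Log2 difference of prenatal T minus control (x axis) for each member in liver and muscle, with 95% intervals from limma and a dashed line at the median of all tested miRNAs. Every interval includes 0; liver estimates run from -0.33 to -0.08 and muscle estimates from -0.07 to 0.22.

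Members differed in how they varied from ewe to ewe. Each member's log2 deviations from the mean of its group of 4 libraries were compared within a tissue (deposited scale). By the root mean square difference over the 8 libraries of a tissue, MIRLET7C and MIRLET7D were nearest in liver at 0.066. Next were MIRLET7A and MIRLET7D at 0.091 and MIRLET7A and MIRLET7C at 0.11. These 3 were all lowest in the liver of ewe 48 and highest in that of ewe 201. MIRLET7B and MIRLET7F were furthest apart in liver, at 0.52. Their widest gap was in the control liver of ewe 98, where they deviated by 0.57 and -0.53. In muscle the nearest pairs were MIRLET7A with MIRLET7B at 0.091 and MIRLET7F with MIRLET7G at 0.11. Sequence likeness and shared loci were not tested as sources of these patterns.

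Of the listed miRNAs encoded beside let-7 genes in mammals, 2 of 6 were measured, MIR99A and MIR125B. MIR99A, the direct neighbour of MIRLET7C, did not keep a fixed proportion with it: MIRLET7C had 0.263 ± 0.0735 reads for each MIR99A read in liver and 0.419 ± 0.0869 in muscle (SD, n = 8 each). On the joint scale MIR99A was at -0.29 in control ewes (limma adjusted p = 0.130) and MIR125B, whose family shares clusters with let-7 genes, at -0.98 (1.00e-05). Among miRNAs other than the members, MIR125B had the profile over 16 libraries most like the family mean, at a root mean square log2 difference of 0.17. It was followed by MIR16B (0.25), MIR23B (0.27), MIR25 (0.30) and MIR22 (0.32). Of the members, only MIRLET7A (0.089) and MIRLET7C (0.16) lay nearer to the family mean than MIR125B. The others lay further from it, up to MIRLET7F (0.51) and MIRLET7B (0.52), so the mean does not stand for every member. The family mean itself was 0.85 higher in muscle on that scale. Of the seed relatives MIR98 and MIR202, neither had an entry under that name among the miRNAs measured (0 of 2).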

How the data were processed

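Small RNA libraries of liver and muscle from 8 ewes were used. The deposited miRNA values are a normalised signal made by the authors. Judged from the values, they appear to be reads divided by a library factor, for each RNA class and tissue separately. Tools named, per the submitters' processing notes, are featureCounts 1.6.1, STAR 2.6.0c and cutadapt 3.2; the genome build is not given in the sources used here. All 1432 miRNA values above 0 (100%) were whole multiples of a library's single-read value within 0.001 reads, and these multiples were taken as the reads behind depths, shares and the scalings between tissues. Low values were too few for a separate check of this recovery, so depths, read numbers and Wilson intervals assume it, and no count test was run.

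Tests used limma 3.58.1 (R 4.3.3, variance trend on) with log2(value + 1) of miRNAs with a mean of at least 5, Benjamini-Hochberg adjustment over all of them and a threshold of 0.05. Prenatal T effects used deposited values within a tissue (81 and 64 miRNAs) and the difference of effects all 16 libraries (76 miRNAs). Tissues were compared in a 4-group fit with 1 estimate of the spread, on reads with median-of-ratios factors. The same fit on reads scaled to let-7 reads was added after seeing that directions depended on the scaling. The fits other than that on let-7 reads were tested on simulated data. Those data were made and scaled with the same factors, so the choice of scaling was not tested. Alternatives covered pseudocounts, filter, trend, scaling, runs of library numbers, the ewe as a block and leaving out libraries. Columns belonging to no sample numbered 0.

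Named miRNAs were all 7 members, listed seed relatives and cluster partners, long non-coding neighbours and the 5 miRNAs with the most similar profile. The members, lists (seed relatives, cluster partners, hepatocyte, skeletal muscle, red blood cell, lymphocyte and myeloid, vessel and stroma, epithelium) and rules were chosen with earlier results of these data known. Same-numbered libraries share an animal; over 76 miRNAs the deviations of an ewe's 2 libraries correlated between -0.28 and 0.35.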

Additional observations from a re-analysis of the deposited data

Results flagged for a closer look

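Of 60 groups of 4 libraries examined, 9 held a library whose gap to its nearest neighbour exceeded Dixon's 95% critical share of the group's range. Chance alone gives about 1 such group in 20, and the 9 involve only ewes 48, 131, 201 and 255. The 60 groups reuse the same libraries and the shares are tied to each other. They are therefore not independent, and the 9 cannot be read as an excess over that rate. In the prenatal T muscle of ewe 255, MIRLET7C was at 9246 normalised reads, MIRLET7F at 8.59% of let-7 reads and the family at 29.1% of miRNA reads. In the prenatal T liver of ewe 48, MIRLET7D was at 1263 normalised reads and MIRLET7G at 24.9% of let-7 reads. In the control liver of ewe 201, MIRLET7D was at 3013 normalised reads and 2.53% of let-7 reads, and in the muscle of that ewe at 3.61%. In the control muscle of ewe 131, MIRLET7I was at 10.3% of let-7 reads.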

How the results depend on the processing

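Members lower in liver numbered 6 with joint factors in both treatment groups. With reads scaled to miRNA reads the number was 0 in control and 1 in prenatal T ewes, and scaled to the reads of 4 RNA classes it was 0 in both, because these scalings shift all miRNAs together. It was 5 or 6 under each other alternative.

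Liver minus muscle turned in control ewes, scaled to miRNA reads, for MIRLET7A (0.68), MIRLET7C (0.65), MIRLET7D (0.070), MIRLET7G (0.60) and MIRLET7I (0.98). Scaled to 4 classes it turned for MIRLET7A (1.39), MIRLET7B (0.46), MIRLET7C (1.35), MIRLET7D (0.77), MIRLET7G (1.31) and MIRLET7I (1.68). In prenatal T ewes it turned, scaled to miRNA reads, for MIRLET7A (0.37), MIRLET7C (0.18), MIRLET7G (0.55) and MIRLET7I (0.89), and, scaled to 4 classes, for MIRLET7A (1.15), MIRLET7B (0.086), MIRLET7C (0.96), MIRLET7D (0.51), MIRLET7G (1.34) and MIRLET7I (1.67). MIRLET7F, near 0 with joint factors, was at -0.12 in control and -0.032 in prenatal T ewes with the number run as a covariate, at -0.11 and -0.075 with TMM factors, at -0.068 when only the 8 control libraries were fitted, and between -0.024 and 0.29 in control ewes when single libraries were left out. MIRLET7I lost its calls without MIR133 in the scaling, at -0.093 in control and -0.13 in prenatal T ewes. MIRLET7F passed as higher in liver in both groups scaled to miRNA reads, with or without MIR133, and to 4 classes, and in control ewes without livers 98 and 48 and muscle 255.

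Of the shares of let-7 reads, 4 members passed in both groups, and 3 to 4 in control and 4 in prenatal T ewes when single libraries were left out. MIRLET7A moved to -0.070 and MIRLET7G to 0.094 in control ewes with the number run as a covariate. Leaving out single libraries gave -0.039 to 0.052 for MIRLET7A, -0.13 to 0.045 for MIRLET7G and -0.12 to 0.038 for MIRLET7C in control ewes, and -0.10 to 0.020 for MIRLET7A in prenatal T ewes. Without livers 98 and 48 and muscle 255, MIRLET7C was at 0.038 in control ewes, and MIRLET7A at 0.027 and MIRLET7G at -0.0010 in prenatal T ewes.

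No member passed for prenatal T under any alternative in either tissue. In liver MIRLET7G was at 0.0061 scaled to 4 classes. In muscle, with the number run as a covariate or within the lower numbers, MIRLET7A was at -0.032, MIRLET7B at -0.026, MIRLET7D at -0.086 and MIRLET7F at 0.0026. Scaled to miRNA reads MIRLET7F was at 0.025, MIRLET7G at 0.030 and MIRLET7I at 0.060, scaled to miRNA reads other than let-7 at 0.065, 0.070 and 0.10, and MIRLET7I was at 0.0073 scaled to 4 classes. Leaving out single muscles gave -0.032 to 0.084 for MIRLET7A, -0.026 to 0.17 for MIRLET7B, -0.086 to 0.19 for MIRLET7D, -0.14 to 0.0026 for MIRLET7F, -0.13 to 0.0015 for MIRLET7G and -0.10 to 0.091 for MIRLET7I.

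With the ewe as a replicate block, 6 members remained lower in liver in both groups, 3 and 4 members passed on shares in control and prenatal T ewes, and 0 for the difference of prenatal T effects, so the block ended only the control call of MIRLET7I. The planned edgeR and DESeq2 tests were not run. Causes of these changes were not tested beyond the scaling shift. With 4 ewes a group, replicate spread and not read depth limits precision, and the alternative scalings share the same reads.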
